A study of Mus musculus with 4 samples.

Results

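The MHC class I antigen presentation genes considered here are B2m, Tap1, Tap2, Tapbp, H2-D1, H2-K1, Psmb8, Psmb9, Psmb10 and Nlrc5, which are 10 of the 22287 genes of the mRNA table. They were taken by symbol, whatever their values, and each symbol had a row. The study set N2a cells, a mouse neuroblastoma line, cultured in MEM medium with 300 µM manganese for 48 h against N2a cells without manganese. Of the 4 libraries in the series the 2 total RNA libraries are used, 1 Mn-treated and 1 untreated, both depleted of ribosomal RNA. The treatment text of the labels is the same for every library, so the titles alone tell which was treated. The labels give C57BL/6 as the strain, while N2a is known as a line from a strain A mouse, and class I heavy chain genes differ between mouse strains. No source used here gives the allele sequences to which reads were assigned. The Mn-treated library held 14606961 reads assigned to genes and the untreated library 13972437. With 1 library per condition no difference has a replicate check and no test across samples was possible, so each ratio compares these libraries. The labels do not say whether they came from separate cultures. Brackets give 95% intervals (Clopper-Pearson) for counting error only, and they leave out variation between cultures and libraries. Amplified reads lacking molecular identifiers can be copies of the same molecule, so the intervals may be too narrow even for counting error. In bulk RNA, fewer cells that express a gene and less RNA per cell cannot be told apart.

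MHC class I molecules carry peptides from proteins made inside a cell to its surface, where CD8 T cells read them. Proteasomes cut the peptides, the TAP transporter moves them into the endoplasmic reticulum, and chaperones load them onto a heavy chain paired with beta-2 microglobulin. Interferon raises most of these genes, and neurons and neuroblastoma cells are known for low class I levels. Of the neuroblastoma and neuron markers checked, 14 of 17 had reads in each library, among them Tubb3 with 33715 reads in the Mn-treated library and 33400 in the untreated library. Ncam1 and Th were higher, at log2 ratios of 1.15 [1.07 to 1.23] and 0.91 [0.53 to 1.30], and Isl1 was lower, at -0.88 [-1.19 to -0.58]. Nefl and Nefm had 0 reads in both.

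Neither a rise nor a fall was shared by the class I genes. Genes were called measured from a sum of 20 reads in the pair of libraries, which held for 9 of the 10, and Tap2 was the exception. Their log2 ratios, Mn-treated over untreated, ran between -1.01 for Psmb9 and 4.13 for Nlrc5 with a median of 0.16, where the median of all 11872 measured genes was 0.18. By 1.5-fold 2 were higher, Tapbp and Nlrc5, and 2 were lower, the immunoproteasome subunits Psmb9 and Psmb10. The other 5 lay within 1.5-fold. Among all measured genes 21.6% lay above the upper 1.5-fold limit and 5.97% below the lower limit, so 2 of 9 is near the background for higher genes. At 2-fold, Nlrc5 was higher and Psmb9 lower, against 7.26% and 1.7% of all measured genes. With a scale set by the median ratio of genes in place of column totals (median-ratio scaling), every log2 ratio moved down by 0.18. Then 1 class I gene was at least 1.5-fold higher and 2 were lower, against 13.3% and 11.3% of all measured genes. At 2-fold on that scale 1 was higher and 2 were lower, against 4.6% and 2.75%.

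**Figure D1:**
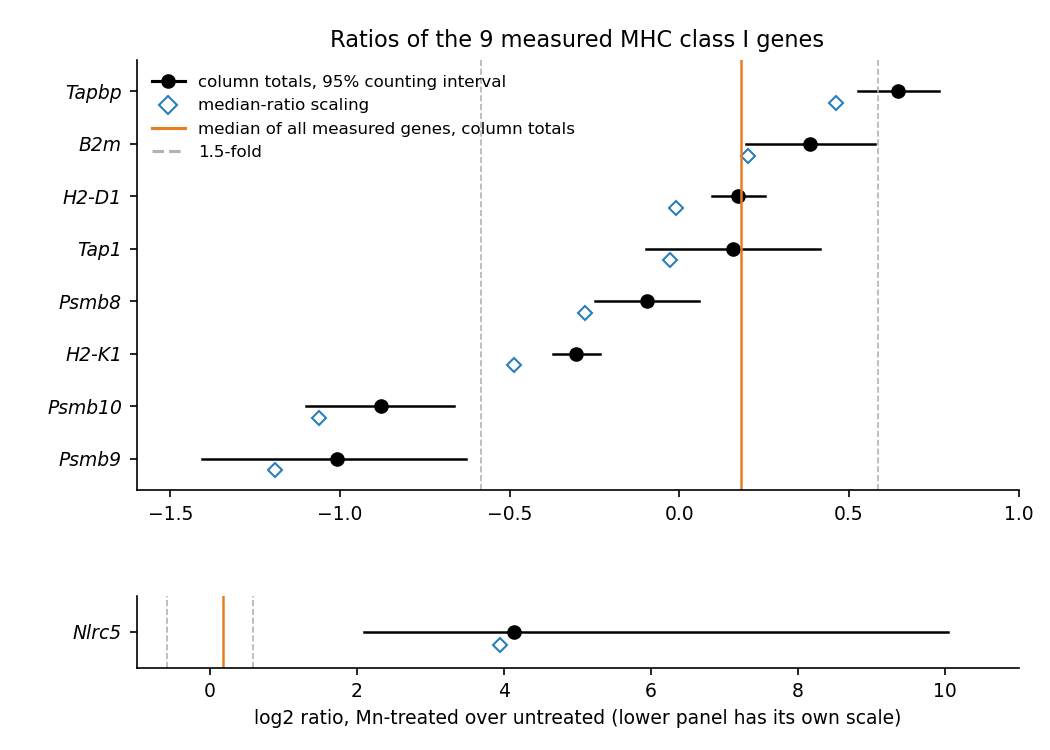
Log2 ratios (Mn-treated over untreated, 1 library each) of the 9 measured genes with 95% counting intervals, and the same with median-ratio scaling, beside the median of all measured genes at 0.18. Psmb9 and Psmb10 sit left of the lower 1.5-fold line, Tapbp is right of the upper line only with column totals, and Nlrc5, on its own scale, has an interval of 2.09 to 10.05.

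Per length, the heavy chains led the set in both libraries. In FPKM as computed by the authors, the order in the Mn-treated library was H2-K1, H2-D1, Psmb8, B2m, Tapbp, Psmb10, Tap1, Psmb9, Nlrc5 and Tap2. The order in the untreated library was the same except that Psmb9 stood above Tap1. Psmb8, B2m and Tapbp lay close together, at 25.96, 25.30 and 23.99 FPKM in the Mn-treated library, against 28.23, 19.14 and 16.90 FPKM in the untreated library. With 1 library per group no spread is known, so whether neighbours in this order differ was not tested. H2-K1 stood above 97.1% of all genes of the table in the Mn-treated library and above 97.6% in the untreated library. At the other end Tap2, the partner of Tap1 in the transporter, was at 0.12 FPKM in the Mn-treated library and was listed at 0 in the untreated library.

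**Figure D2:**
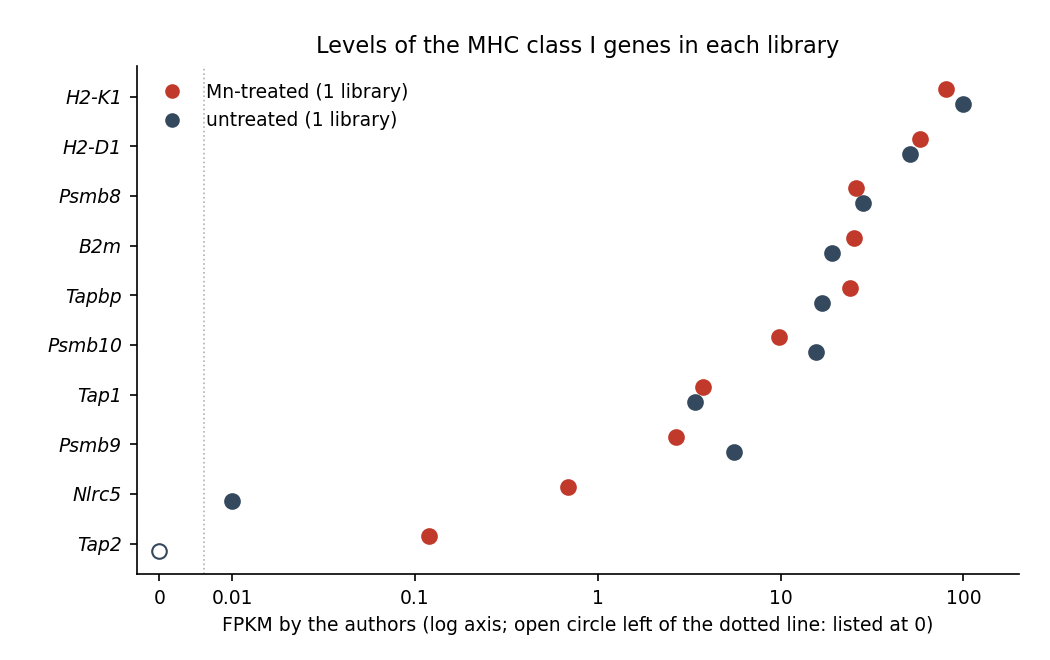
FPKM values by the authors (log axis) of the 10 genes in the Mn-treated and the untreated library, 1 point per library, with an open circle for a value listed at 0. The heavy chains H2-K1 and H2-D1 sit at 50.71 FPKM or more in both libraries, while Nlrc5 and Tap2 lie under 1 FPKM.

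The classical heavy chains differed from each other. H2-K1 (ENSMUSG00000061232), which presents peptides to CD8 T cells, had 3057 reads in the Mn-treated library and 3609 in the untreated library, a log2 ratio of -0.30 [-0.37 to -0.23]. With median-ratio scaling the log2 ratio of H2-K1 was -0.49, outside that interval, which does not cover the choice of scale. H2-D1 (ENSMUSG00000073411), the other classical heavy chain measured here, had 2895 reads in the Mn-treated library and 2454 in the untreated library, a log2 ratio of 0.17 [0.10 to 0.25], close to the median gene. Its log2 ratio was -0.01 with median-ratio scaling, so no direction is given for H2-D1. The reads of H2-K1 per read of H2-D1 were therefore 1.06 in the Mn-treated library and 1.47 in the untreated library, a 0.718-fold change [0.668 to 0.772], a ratio that no scaling of the libraries changes. Estimated counts of both were fractional, which can mark reads shared with similar gene models, so these values are uncertain. Summed, the heavy chains had 5952 reads in the Mn-treated library and 6063 in the untreated library.

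B2m (ENSMUSG00000060802), the light chain that every classical class I molecule needs, had 537 reads in the Mn-treated library and 393 in the untreated library. Its log2 ratio was 0.39 [0.20 to 0.58], or 0.20 with median-ratio scaling. The summed FPKM of H2-K1 and H2-D1 was 5.45 times that of B2m in the Mn-treated library and 7.83 times in the untreated library. B2m was higher and H2-K1 lower, and B2m reads per H2-K1 read were 1.61-fold higher in the Mn-treated library [1.40 to 1.86]. Against H2-D1 the change was smaller, 1.16-fold [1.00 to 1.34].

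The promoters of these genes are shown because they carry well-known sites of class I control, and the ratios of the genes differed. The sequences are the 250 bases before the start of each gene in RefSeq (build GRCm38.p6), 5′ to 3′ on the strand of the gene, and for H2-K1, which has several starts there, the start furthest downstream was used. Capitals mark every match, on either strand, to the core of an interferon-stimulated response element, to TTCNNNGAA (a STAT site) or to an NF-kB site. They also mark, on either strand, TGACG (part of a cAMP response element, the X2 box of class I promoters) and CCAAT. The Y box of class I promoters holds the letters CCAAT, but not every CCAAT match is a Y box. The sequences lie at chr2:122147437-122147686 (B2m, plus strand), chr17:34000334-34000583 (H2-K1, minus strand) and chr17:35262844-35263093 (H2-D1, plus strand).
B2m: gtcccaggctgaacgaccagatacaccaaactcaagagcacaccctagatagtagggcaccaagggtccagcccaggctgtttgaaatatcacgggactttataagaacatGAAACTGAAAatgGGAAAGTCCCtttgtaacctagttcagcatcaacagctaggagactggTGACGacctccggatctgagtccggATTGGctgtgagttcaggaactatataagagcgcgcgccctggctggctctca
H2-K1: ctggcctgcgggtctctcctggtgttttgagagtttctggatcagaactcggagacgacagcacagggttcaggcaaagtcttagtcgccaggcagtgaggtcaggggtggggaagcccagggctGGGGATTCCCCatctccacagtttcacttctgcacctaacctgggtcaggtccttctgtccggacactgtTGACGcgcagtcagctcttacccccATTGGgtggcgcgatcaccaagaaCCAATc
H2-D1: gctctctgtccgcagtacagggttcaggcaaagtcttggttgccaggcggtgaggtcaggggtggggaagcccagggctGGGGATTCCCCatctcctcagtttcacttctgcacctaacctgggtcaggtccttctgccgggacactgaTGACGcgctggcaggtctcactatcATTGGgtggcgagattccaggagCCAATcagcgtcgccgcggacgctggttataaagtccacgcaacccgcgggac
B2m holds the interferon-response core starting 139 bases before the gene, followed by an NF-kB match at 126, a TGACG at 78 and a CCAAT on the opposite strand at 53. H2-K1 and H2-D1 share a stretch of 192 aligned bases with 89.6% identity, and both hold 2 overlapping NF-kB matches, each found on both strands, then TGACG and 2 CCAAT matches. Of all 32851 RefSeq promoters searched over 250 bases, 2.98% held the interferon-response core, 7.02% the STAT site, 3.90% an NF-kB match, 17.8% TGACG and 33.8% CCAAT. Promoters of 8 of the 10 genes were matched in the table. Among these 8, 1 held the interferon-response core, 1 the STAT site (Psmb8), 3 an NF-kB match, 5 TGACG and 6 CCAAT. Looser forms of the interferon-response core were not searched, so a promoter without a match may still hold such an element. A match is a description of letters and not a site in use.

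Nearly all transporter reads came from Tap1. Tap1 (ENSMUSG00000037321) had 274 reads in the Mn-treated library and 235 in the untreated library, a log2 ratio of 0.16 [-0.10 to 0.42] that lay at the median gene and turned to -0.03 with median-ratio scaling. Tap2 (ENSMUSG00000024339) had 1 read in the Mn-treated library, from a deposited estimate of 1.14, and 0 in the untreated library. A count of 0 allows a share of up to 2.15e-05% of the reads of the untreated library (3 counts), so no ratio is given. Tap2 and Tap1 both are needed for a working transporter. Per length, Tap2 lay at 0.12 FPKM in the Mn-treated library, where Tap1 lay at 3.76 FPKM. The Tap2 count and FPKM value together imply a shorter gene model than those of Tap1, and the deposited Tap2 count was fractional. Whether the low Tap2 count comes from the cells or from the gene model was not tested.

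Tapbp (ENSMUSG00000024308) encodes tapasin, which holds empty class I molecules at the transporter while peptides are exchanged. It had 1525 reads in the Mn-treated library and 932 in the untreated library, a log2 ratio of 0.65 [0.53 to 0.77]. That is a ratio of 1.56, above 81.7% of measured genes, but with median-ratio scaling the log2 ratio was 0.46 and in the authors' deposited table it is 0.51, both under 1.5-fold. The untreated count was fractional at 931.57, so a part of these reads may be shared with another gene model. Tapbp reads per Tap1 read were 5.57 in the Mn-treated library and 3.97 in the untreated library, 1.40-fold higher with manganese [1.15 to 1.71].

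The immunoproteasome subunits replace the catalytic subunits of the standard proteasome and favour cuts that yield class I peptides. Of the 3, Psmb9 and Psmb10 were lower in the Mn-treated library and Psmb8 was within 1.5-fold. Psmb9 (ENSMUSG00000096727), the beta1i subunit also called LMP2, had 86 reads in the Mn-treated library and 166 in the untreated library, a log2 ratio of -1.01 [-1.41 to -0.63]. Only 1.67% of measured genes had a lower ratio. Psmb10 (ENSMUSG00000031897), the beta2i subunit also called MECL-1, had 277 reads in the Mn-treated library and 488 in the untreated library, a log2 ratio of -0.88 [-1.10 to -0.67], with 2.30% of measured genes lower. Psmb8 (ENSMUSG00000024338), the beta5i subunit also called LMP7, had 700 reads in the Mn-treated library and 715 in the untreated library, a log2 ratio of -0.09 [-0.25 to 0.06]. With median-ratio scaling these were -1.19, -1.06 and -0.28. Counts of all 3 were whole in both libraries.

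Since the subunits are built into the same particle, their ratios within a library were compared too, and these do not depend on how libraries are scaled. Psmb9 reads per Psmb8 read were 0.123 in the Mn-treated library and 0.232 in the untreated library, 1.89-fold lower with manganese [1.42 to 2.53]. Psmb10 reads per Psmb8 read were 0.396 in the Mn-treated library and 0.683 in the untreated library, 1.72-fold lower [1.43 to 2.08]. Psmb8 thus differed less between the libraries than the other subunits.

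Each immune subunit was then set against the standard subunit whose place it takes. Psmb5, the standard beta5, had 2831 reads in the Mn-treated library and 3455 in the untreated library, and Psmb6, the standard beta1, had 4433 and 6193 reads in that order. Psmb7, the standard beta2, had 1666 reads in the Mn-treated library and 1524 in the untreated library. In FPKM, Psmb10 stood at 16.7% of Psmb7 in the Mn-treated library and at 28.3% in the untreated library. Psmb9 stood at 1.19% of Psmb6 in the Mn-treated library and at 1.72% in the untreated library, so Psmb9 RNA was far below Psmb6 RNA in both. Psmb8 stood at 20.3% of Psmb5 in the Mn-treated library and at 17.5% in the untreated library. In reads, the immune share changed 0.52-fold for Psmb10 against Psmb7 [0.44 to 0.61], 0.72-fold for Psmb9 against Psmb6 [0.55 to 0.95] and 1.19-fold for Psmb8 against Psmb5 [1.06 to 1.34]. At the beta1 place the standard subunit was lower too, with a log2 ratio of -0.55 [-0.60 to -0.49], and Psmb7 was at 0.06 [-0.04 to 0.17].

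**Figure D3:**
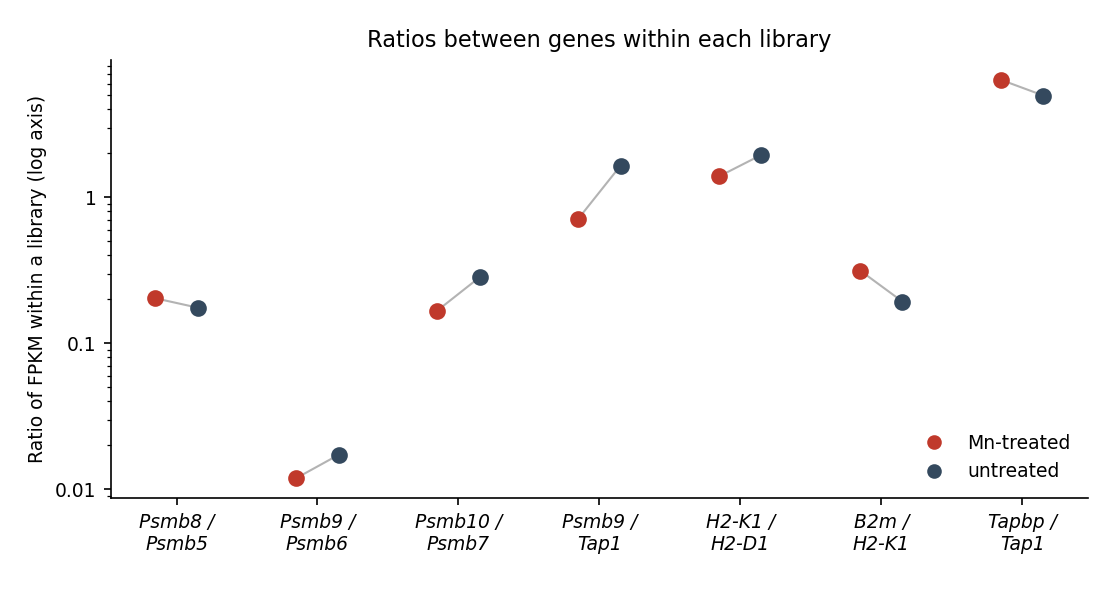
Ratios of FPKM between genes within the Mn-treated and the untreated library (log axis), 1 point per library. Psmb10 over Psmb7, Psmb9 over Psmb6, Psmb9 over Tap1 and H2-K1 over H2-D1 are lower in the Mn-treated library, and B2m over H2-K1, Psmb8 over Psmb5 and Tapbp over Tap1 are higher.

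Psmb9, Tap1, Psmb8 and Tap2 follow each other on chromosome 17 in RefSeq. Psmb9 and Tap1 point away from each other and have only 225 bases between their starts, a stretch known as a shared promoter. The stretch is shown because its genes differed here. It lies at chr17:34187331-34187555 in GRCm38.p6 and is given on the plus strand, which is that of Tap1, with capitals as above.
Tap1-Psmb9: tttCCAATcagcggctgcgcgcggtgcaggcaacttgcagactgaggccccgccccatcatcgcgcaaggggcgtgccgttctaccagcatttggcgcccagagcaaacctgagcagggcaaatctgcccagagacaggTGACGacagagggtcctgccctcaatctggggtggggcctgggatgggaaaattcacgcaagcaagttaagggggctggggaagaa
Its matches were a CCAAT close to the start of Psmb9, which is 222 bases before Tap1, and a TGACG 86 bases before Tap1. No match to the interferon-response core, the STAT site or the NF-kB site was found in this window. Psmb9 reads per Tap1 read were 0.314 in the Mn-treated library and 0.706 in the untreated library, 2.25-fold lower with manganese [1.63 to 3.12]. Per length, Psmb9 was at 2.68 FPKM and Tap1 at 3.76 FPKM in the Mn-treated library, against 5.59 and 3.39 FPKM in the untreated library, so their order turned. For Psmb8 against Tap1 the reads ratio changed 0.84-fold [0.68 to 1.03].

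Nlrc5 (ENSMUSG00000074151), a regulator that drives transcription of class I heavy chain, B2m, Tap1 and Psmb9 genes, had the highest ratio of the 9 measured genes on the fewest reads. It had 27 reads in the Mn-treated library and 1 in the untreated library, a log2 ratio of 4.13 [2.09 to 10.05], which in linear terms spans 4.26-fold to 1057-fold. In FPKM it was at 0.69 in the Mn-treated library and 0.01 in the untreated library, and the authors' deposited table gives a log2 fold change of 6.11. Ratios of low genes spread widely in these libraries. Of the 640 genes with a sum of 20 to 40 reads, 28.8% lay above 2-fold, against 7.26% of all measured genes. Nlrc5 reached the minimum of 20 reads only through the Mn-treated library, so with 1 untreated read it had to come out higher, and its place among the genes called higher supports nothing. The genes that Nlrc5 is known to drive had log2 ratios of 0.39 (B2m), 0.17 (H2-D1), 0.16 (Tap1), -0.30 (H2-K1) and -1.01 (Psmb9). With median-ratio scaling H2-D1 was at -0.01 and Tap1 at -0.03, so no direction is given for either. Any link between Nlrc5 and these genes was not tested.

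Nlrc5 is most abundant in lymphoid and myeloid cells, so markers of other cell types were read beside it. Of the 16 immune, glial and endothelial markers, 10 had reads in the Mn-treated library and 6 in the untreated library. Over the whole mRNA table, 13833 of 22287 genes had reads in the Mn-treated library and 13288 in the untreated library. The markers summed to 439 and 265 reads in that order. Most came from Mbp, with 309 and 189 reads in that order, and Pecam1, with 76 and 68. Lyz2, a lysozyme of myeloid cells, had 20 reads in the Mn-treated library and 0 in the untreated library. C1qb had 9 reads, C1qa 6 and Itgam 6 in the Mn-treated library, and each had 0 in the untreated library. Tyrobp, an adaptor of myeloid receptors, went the other way, with 0 reads in the Mn-treated library and 3 in the untreated library. Among the 10 myeloid genes of the 16 markers, a subset formed after their values were seen, there were 50 reads in the Mn-treated library and 5 in the untreated library. All of these but Lyz2 lay under the minimum of 20 reads, and no background was taken for genes with so few reads. Ptprc, which marks white blood cells at large, and Aif1, Cd3e and Cd8a had 0 reads in both libraries. The part of these markers in the Nlrc5 value was not tested.

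**Figure D4:**
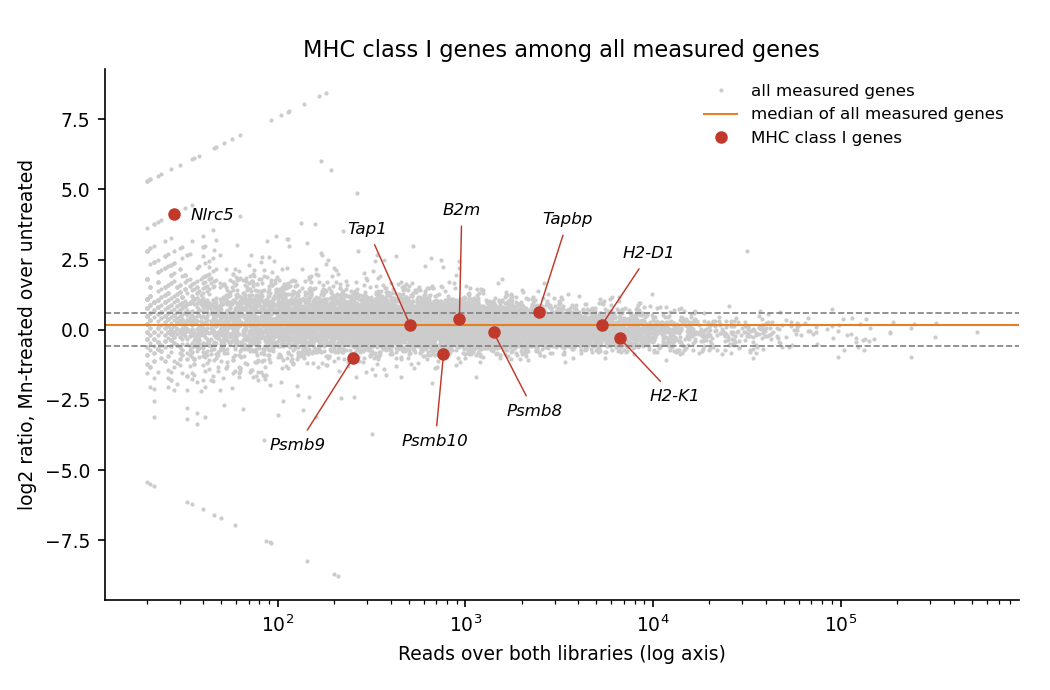
Log2 ratio (Mn-treated over untreated) against reads over both libraries (log axis) for all 11872 measured genes, with the 9 measured class I genes named. Nlrc5, with 28 reads, lies in the low range where ratios spread widely, and Psmb9 and Psmb10 lie at the lower edge of genes with like reads. The diagonal arcs at the outer edges are genes with 0 reads in a library.

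The other regulators of class I genes were nearer the middle. Of 19 genes, 18 were measured, with a median log2 ratio of 0.09. Past 1.5-fold, 2 (11.1%) were higher and 1 (5.56%) was lower, against 21.6% and 5.97% of all measured genes, and scaling by the median ratio gave 1 of each, against 13.3% and 11.3%. Rfx5, a subunit of the complex that binds the X box of MHC promoters, had 402 reads in the Mn-treated library and 203 in the untreated library, a log2 ratio of 0.92 [0.67 to 1.17]. Nfya and Nfyc, partners in the factor that binds CCAAT, were at 0.68 [0.51 to 0.85] and -0.64 [-0.87 to -0.41], and Nfya counts were fractional. Rela, a subunit of NF-kB and the regulator with the most reads, was at -0.14 [-0.26 to -0.02]. Irf1, which carries the interferon signal to class I promoters, had a log2 ratio of 0.10 [-0.09 to 0.29], but stands at -0.31 in the authors' deposited table, so no direction is given. Irf8, a factor of immune cells, had 0 reads in both libraries. Of the 9 interferon receptors and signalling genes, Jak2 was past 1.5-fold higher (11.1%, against 21.6% of all measured genes), at 0.61 [0.15 to 1.09], and 8 lay within 1.5-fold, among them Tyk2 at 0.20 and Ifngr2 at 0.33. With median-ratio scaling all 9 lay within 1.5-fold, and the log2 fold change of Jak2 deposited by the authors is 0.11.

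Partners in peptide trimming and loading had a median log2 ratio of 0.42, and all 14 were measured. Of these 3 (21.4%) were past 1.5-fold higher and 0 past 1.5-fold lower, against 21.6% and 5.97% of all measured genes, so the count is near the background. Scaling by the median ratio gave 2 and 1, against 13.3% and 11.3%. Lnpep, an aminopeptidase of endosomes with a role in cross-presentation, had 953 reads in the Mn-treated library and 449 in the untreated library, a log2 ratio of 1.02 [0.86 to 1.19]. Canx, the chaperone calnexin that folds new heavy chains, had 6335 reads in the Mn-treated library and 3362 in the untreated library, at 0.85 [0.79 to 0.91]. Uggt1, which returns misfolded glycoproteins to these chaperones, was at 0.64 [0.54 to 0.73]. Calr, calreticulin of the loading complex, was at -0.08 [-0.12 to -0.05], and the disulfide isomerase P4hb was at 0.41 [0.36 to 0.46]. Erap1, which trims peptides in the endoplasmic reticulum, had 130 reads in the Mn-treated library and 85 in the untreated library, at 0.55 [0.14 to 0.96]. The log2 fold change of Erap1 deposited by the authors is smaller, at 0.21. Tapbpl, a relative of tapasin that edits peptides, was at -0.49 [-1.08 to 0.08] and was the gene past 1.5-fold lower with median-ratio scaling.

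Of the proteasome genes that are not immune subunits, 1 of 8 (12.5%) was past 1.5-fold higher and 0 were past it in the other direction, against 21.6% and 5.97% of all measured genes. Psme4, an activator cap of the proteasome, was at 0.78 [0.64 to 0.93], and Psmb6 at -0.55 passed 1.5-fold lower only with median-ratio scaling, at -0.73. The caps Psme1 and Psme2, which interferon raises together with the immune subunits, were at 0.01 [-0.08 to 0.10] and 0.32 [0.17 to 0.47]. Psme3 was at -0.28 [-0.34 to -0.22]. Pomp, which assembles the particle, was at -0.01 [-0.11 to 0.09].

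The other heavy chains and class I-like genes listed were mostly sparse. Of 28 listed symbols 24 were found in the table, 10 of them had 0 reads in both libraries and 9 were measured, with a median log2 ratio of 0.12. By 1.5-fold 3 of the 9 were higher and 1 was lower, against 21.6% and 5.97% of all measured genes. Scaling by the median ratio gave 2 and 4, against 13.3% and 11.3%. Fcgrt, the class I-like receptor that recycles antibodies and albumin, had 381 reads in the Mn-treated library and 224 in the untreated library, at 0.70 [0.46 to 0.95]. Cd1d1, which presents lipids, had 24 reads in the Mn-treated library and 8 in the untreated library, at 1.46 [0.32 to 2.89]. Mr1, which presents vitamin metabolites, had 21 and 10 reads in that order, at 0.97 [-0.14 to 2.26]. Cd1d1 and Mr1 reached the minimum of 20 reads mainly through the Mn-treated library. Their sums lay in the range of 20 to 40 reads, where 28.8% of genes were above 2-fold. The count of higher genes in this list thus rests in part on low reads. H2-T22 and H2-T10, near-identical class I-like genes, were at -0.71 [-1.40 to -0.06] and -0.42 [-0.77 to -0.07], on fractional counts. Gm11127, outside this list but in the antigen presentation annotation of the mRNA table, went the other way. It had 259 reads in the Mn-treated library and 96 in the untreated library, at 1.36 [1.02 to 1.72], also on fractional counts. Whether reads were divided among these genes was not tested.

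Genes of class I export and turnover had a median log2 ratio of 0.21 over 13 measured. Past 1.5-fold, 3 (23.1%) were higher and 1 (7.69%) was lower, near the 21.6% and 5.97% of all measured genes, and scaling by the median ratio gave 2 and 1. March4, a membrane ubiquitin ligase whose human form takes class I molecules off the surface, had 96 reads in the Mn-treated library and 30 in the untreated library, at 1.60 [1.01 to 2.26]. Sel1l, of the ligase complex that removes misfolded proteins from the endoplasmic reticulum, was at 0.93 [0.78 to 1.07], on fractional counts. Sec23a, a coat protein of vesicles leaving the endoplasmic reticulum, was at 0.59 [0.41 to 0.77], and its partner Sec24d was at -2.39 [-2.91 to -1.92], on fractional counts. Derl1, of the same removal route as Sel1l, was at 0.17 [0.08 to 0.25]. The lists of regulators, interferon receptors, loading partners, other proteasome genes, other heavy chains and export genes held 71 measured genes together. Of these 13 (18.3%) were past 1.5-fold higher and 3 (4.23%) past 1.5-fold lower, shares no higher than the 21.6% and 5.97% of all measured genes. Scaling by the median ratio gave 8 of each (11.3%), against 13.3% and 11.3%.

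**Figure D5:**
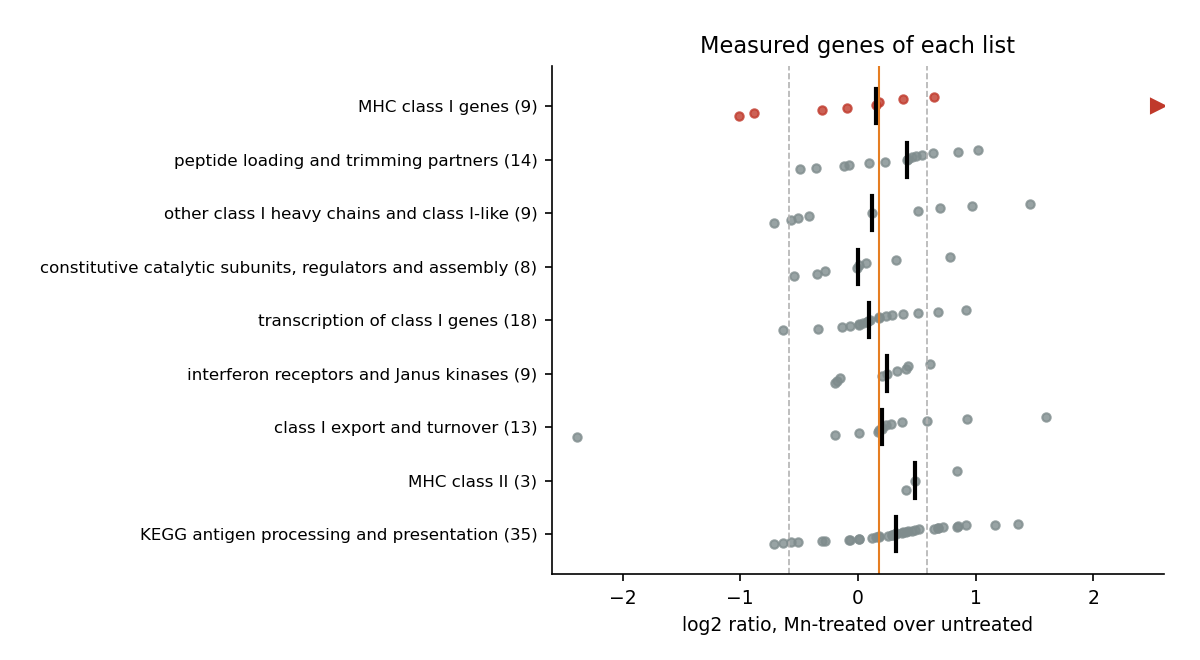
Log2 ratios (Mn-treated over untreated) of the measured genes of each list, with the number measured in brackets, a black bar at the list's median, an orange line at the median of all measured genes (0.18) and dashed lines at 1.5-fold. The class I genes spread on both sides of the orange line, Nlrc5 lies off the scale as a triangle, and the loading partners have their median at 0.42.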

How the data were processed

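Total RNA of N2a cells was sequenced after removal of ribosomal RNA, per the labels' protocols. Build mm9 and the tools StringTie, Bowtie2 and fastp 0.18.0 appear in the submitters' processing notes without role or order, and no source used here names the counting program or annotation. For each gene the authors deposited estimated counts and FPKM values, a log2 fold change that equals the log2 ratio of FPKM values with 0 replaced by 0.001, and p-values of an unnamed test, which were not used. The deposited circRNA junction counts were searched for host genes among the 10 genes. Column names gave the condition, and the kind of RNA gave the library, with 0 columns unassigned.

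Before use, estimated counts were rounded to whole numbers. A ratio is Mn-treated over untreated, from each count with 0.5 added, over its column total, with an exact conditional binomial 95% interval, and ratios between genes have exact conditional odds ratio intervals (SciPy 1.17.1, Python 3.11.15). A gene needed 20 reads over both libraries. Alternatives used median-ratio, upper-quartile and TMM scaling (edgeR 4.0.16), pseudocounts of 1 and 0.1, no minimum or a minimum of 100 reads, FPKM values with a pseudocount of 0.1, the deposited fold changes, unrounded counts, and whole counts only. Ratio and interval steps were tested on simulated data. The genes and the lists were chosen with earlier results of these data known. All 10 genes are named, and of each other list the measured genes past 1.5-fold, up to 4 per direction, and the 2 with the most reads, except that some genes of these lists are not reported here. Irf1, Irf8, Erap1, Tapbpl, Psme1, Psme2, Pomp, Psmb5, Psmb7 and the marker and class II genes were added for their known roles after their values were seen. Promoter sequences are from RefSeq.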

Additional observations from a re-analysis of the deposited data

How the results depend on the processing

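No paired analysis was possible because each group holds 1 library. Of the 9 measured genes, Psmb9 (log2 ratios between -1.19 and -1.005), Psmb10 (-1.06 to -0.67), H2-K1 (-0.49 to -0.30), Psmb8 (-0.28 to -0.09), B2m (0.20 to 0.40), Tapbp (0.46 to 0.65) and Nlrc5 (2.84 to 6.11) kept their sign under every alternative that gave a value. H2-D1 and Tap1 turned sign under 2 of 10 alternatives each. The genes at least 1.5-fold higher numbered 2, and 3 with no minimum, but 1 with median-ratio, upper-quartile or TMM scaling, FPKM values, the deposited fold changes, a minimum of 100 reads (which leaves out Nlrc5) or whole counts only (which leaves out Tapbp). Those at least 2-fold higher numbered 1, but 2 with no minimum and 0 with a minimum of 100 reads, and those at least 2-fold lower numbered 1, but 2 with each of the 3 other scalings. Over all genes, 2564 at least 1.5-fold higher became 1580, 1699 and 1614 with median-ratio, upper-quartile and TMM scaling and 3912 with no minimum, and 709 lower became 1346, 1210, 1306 and 1401 in that order. At 2-fold, 862 higher became 546, 574, 555 and 2090, and 485 with a minimum of 100 reads. At 2-fold, 202 lower became 327 and 322 with median-ratio and TMM scaling, 783 with no minimum and 75 with a minimum of 100 reads. Of the other pathway lists, 13 higher became 8 with each of the 3 scalings, and 3 lower became 8, 7 and 8, and 5 with no minimum or with the deposited fold changes. These shifts follow from the scale and the minimum by construction, and for FPKM values and deposited fold changes the cause was not tested. Depth limits Nlrc5 and Tap2 most, with 28 reads and 1 read over both libraries.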

Other observations

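MHC class II genes were read beside class I, since Cd74 and its partners use a separate route for antigens taken up from outside. Cd74, the invariant chain, had 1661 reads in the Mn-treated library and 1200 in the untreated library, a log2 ratio of 0.40 [0.30 to 0.51], and stood at 53.97 and 40.23 FPKM in that order. The chains it accompanies were nearly absent, with 3 reads of H2-Aa in the Mn-treated library and 0 in the untreated library, and 0 reads of H2-Ab1 and H2-Eb1 in both. Ciita, the class II counterpart of Nlrc5, had 5 reads in the Mn-treated library and 0 in the untreated library. H2-DMa, which exchanges peptides on class II molecules, had 171 reads in the Mn-treated library and 117 in the untreated library, at 0.48 [0.14 to 0.84]. Of the 10 class II genes 3 were measured, and 1 (33.3%), H2-Oa, was past 1.5-fold higher, against 21.6% of all measured genes. H2-Oa had 21 reads in the Mn-treated library and 11 in the untreated library, at 0.84 [-0.25 to 2.07]. Its sum lay in the range of 20 to 40 reads, where 28.8% of genes were above 2-fold.

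The antigen processing and presentation pathway annotated in the mRNA table, which covers class I, class II and chaperone genes, held 81 genes, of which 35 were measured. Their median log2 ratio was 0.32, with 9 (25.7%) past 1.5-fold higher and 2 (5.71%) past 1.5-fold lower, near the 21.6% and 5.97% of all measured genes. Scaling by the median ratio gave 5 and 4, against 13.3% and 11.3%. Highest was Gm11127, a gene of this pathway annotation, with 259 reads in the Mn-treated library and 96 in the untreated library, at 1.36 [1.02 to 1.72] on fractional counts. Next was Ctsb, a lysosomal protease, with 4636 reads in the Mn-treated library and 1982 in the untreated library, at 1.16 [1.09 to 1.24]. The chaperones Hspa8 and Hsp90ab1 had the most reads, at 0.72 [0.70 to 0.74] and 0.38 [0.36 to 0.39]. Rfx5, Canx, H2-T22 and Nfyc, also in this annotation, are described above. Of 2253 circRNAs, 0 had a host among the 10 class I genes.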
